A study of Mus musculus with 10 samples.

Results

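The genes described here encode the subunits of RNA polymerases I, II and III and the initiation factors of polymerases I and III, measured by RNA-seq in mouse embryonic stem cells (mESCs). They were chosen by name: every feature named Polr1, Polr2 or Polr3 with a letter, Taf1 with the letter a to d, every feature whose name starts with Gtf3a, Gtf3b or Gtf3c, and Rrn3, Ubtf, Brf1, Brf2, Bdp1 and Maf1. The rule took 44 of 25965 features, 10 of them for Pol I, 13 for Pol II and 21 for Pol III. All 44 passed the filter on low values, a log2 value above 0 in at least 50% of the libraries. The 10 libraries came from 2 independent male C57/Bl6 mESC lines cultured in 2i, a medium with a pair of kinase inhibitors, and no transgene or drug set the groups apart. Per the study, 1 of the lines had lost its Y chromosome while it was being derived. Both lines were sampled at passage 0 (p0) and again after 10 and 20 passages (p10 and p20) under each of 2 culture methods. Under Keniry2022 (New or Off in the labels) the cells grew in suspension, at higher density and with daily passaging, and under Mulas2019 (Old or On) they grew on gelatin and were passaged less often. The lines had been established under Keniry2022 conditions, each group held 2 libraries, 1 for each line, and 20 Keniry2022 passages took as many days as 10 Mulas2019 passages.

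Pol I transcribes the long precursor of ribosomal RNA, Pol II transcribes messenger RNA, and Pol III transcribes 5S ribosomal RNA, transfer RNA and other short RNAs. Each polymerase has a large catalytic core of its own. Some small subunits, Polr2e, Polr2f, Polr2h, Polr2k and Polr2l, sit in all 3 enzymes, and Polr1c and Polr1d sit in Pol I and Pol III. Pol I is brought to its promoter by Ubtf, by the selectivity factor that contains the Taf1 proteins, and by Rrn3, the growth-regulated factor that makes the enzyme competent to start. Pol III relies on TFIIIC (the Gtf3c genes), on TFIIIA (Gtf3a) at the 5S genes, and on TFIIIB (Bdp1 with Brf1 or Brf2), and it is repressed by Maf1. It also exists in alternative forms that carry either Polr3g, which is abundant in pluripotent cells, or its paralogue Polr3gl, the form common in differentiated tissue. None of these readings measures the RNA that Pol I and Pol III make. They are levels of the messenger RNAs of the machinery only.

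The reference sequence just upstream of the annotated start is shown for Gtf3c6 and Polr3gl, which had the highest and the lowest difference between the methods, and for Polr3g, the paralogue of Polr3gl that moved the other way. The sequences are from the RefSeq promoter table for build GRCm38.p6 and read 5′ to 3′ along the gene. Capitals mark the E-box letters CACGTG and the ETS-type letters CCGGAAG, or the reverse complement of the latter. These motifs do not overlap in any of the 3 sequences.
Polr3g, chr13:81711014-81711263, minus strand: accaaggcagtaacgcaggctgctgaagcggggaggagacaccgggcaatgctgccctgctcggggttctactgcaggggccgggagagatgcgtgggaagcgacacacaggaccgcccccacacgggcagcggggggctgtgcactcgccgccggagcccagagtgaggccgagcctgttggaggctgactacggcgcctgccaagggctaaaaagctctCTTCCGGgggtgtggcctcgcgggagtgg
Polr3gl, chr3:96594182-96594431, minus strand: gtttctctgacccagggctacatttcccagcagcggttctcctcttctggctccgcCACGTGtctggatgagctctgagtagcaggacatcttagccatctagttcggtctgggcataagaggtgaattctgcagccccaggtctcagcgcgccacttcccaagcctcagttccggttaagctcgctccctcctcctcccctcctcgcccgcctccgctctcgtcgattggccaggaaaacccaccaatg
Gtf3c6, chr10:40257713-40257916, minus strand: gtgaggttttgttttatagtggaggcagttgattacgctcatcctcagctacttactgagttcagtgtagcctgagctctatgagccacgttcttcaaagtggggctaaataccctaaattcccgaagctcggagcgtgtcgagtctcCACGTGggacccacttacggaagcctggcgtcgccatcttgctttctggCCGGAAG
The Polr3g window held the ETS-type letters 29 bases upstream of its start. The Polr3gl window held the E-box 194 bases upstream. The Gtf3c6 window, 204 bases long because the rest overlapped exons, held the E-box 56 and the ETS-type letters 7 bases upstream. Searched on both strands in the 250 bases before each annotated start, ETS-type letters were found in 10 of the 35 member genes with an entry in the table, 6 of them for Pol III. They were Polr1c, Taf1c, Polr2f, Polr2j, Polr3b, Polr3g, Gtf3c1, Gtf3c2, Gtf3c6 and Bdp1, which went both up and down between the methods. Counted over windows, 25% of 44 member windows and 6.91% of all 32851 promoter windows held these letters. The E-box was found in 11.4% of member windows, those of Rrn3, Polr3c, Polr3gl and Gtf3c6, and in 6.02% of all windows. These matches describe the letters in the window and are not evidence of binding.

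The deposited values are log2 RPKM, reads per kilobase of exon scaled to the library total, so that levels can be compared between genes. Library totals worked out from the values lay between 24053996 and 30236823 reads. Genes of naive mESCs were abundant, with 10 marker genes summing to between 2580 and 4840 RPKM per library, whereas 6 markers each of primitive endoderm, trophectoderm and fibroblasts summed to at most 2.50, 4.31 and 1.05 RPKM. Of the fibroblast markers, 3 to 4 were at 0 reads in each library. The p0 libraries stood apart from each other: the SD over features of the log2 difference between p0 replicates was 0.611, against 0.230 to 0.265 in the other groups. Y-linked genes had 13 to 132 reads in the replicate 1 libraries of the other groups and 4578 to 8140 in their replicate 2 libraries. For p20 Keniry2022 this order was turned, with 6659 reads under the label replicate 1 and 48 under the label replicate 2, and those labels are quoted here as they stand. The share of reads in features was 87.56% to 88.29% under Keniry2022, 85.43% to 86.47% under Mulas2019 and 87.25% to 87.61% at p0, so it separated the methods, and its part in the results below was not tested. In bulk RNA, fewer cells of a type and less RNA per cell cannot be told apart.

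Among the 8 libraries of p10 and p20, Pol II genes had the highest median level and Pol III genes the lowest. The mean log2 RPKM of Pol II members ran from 2.42 for Polr2l to 7.16 for Polr2m, which encodes a Pol II-associated inhibitor. In Pol I the range was from 2.62 for Taf1c to 6.15 for Polr1c. In Pol III it was from 0.90 for Polr3gl to 5.30 for Gtf3c6. The catalytic subunits followed the order Pol II, Pol I, Pol III, with means of 5.82 for Polr2a, 4.995 for Polr1a and 3.69 for Polr3a. Polr3gl was the member with the fewest reads, 62 to 112 per library.

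**Figure D1:**
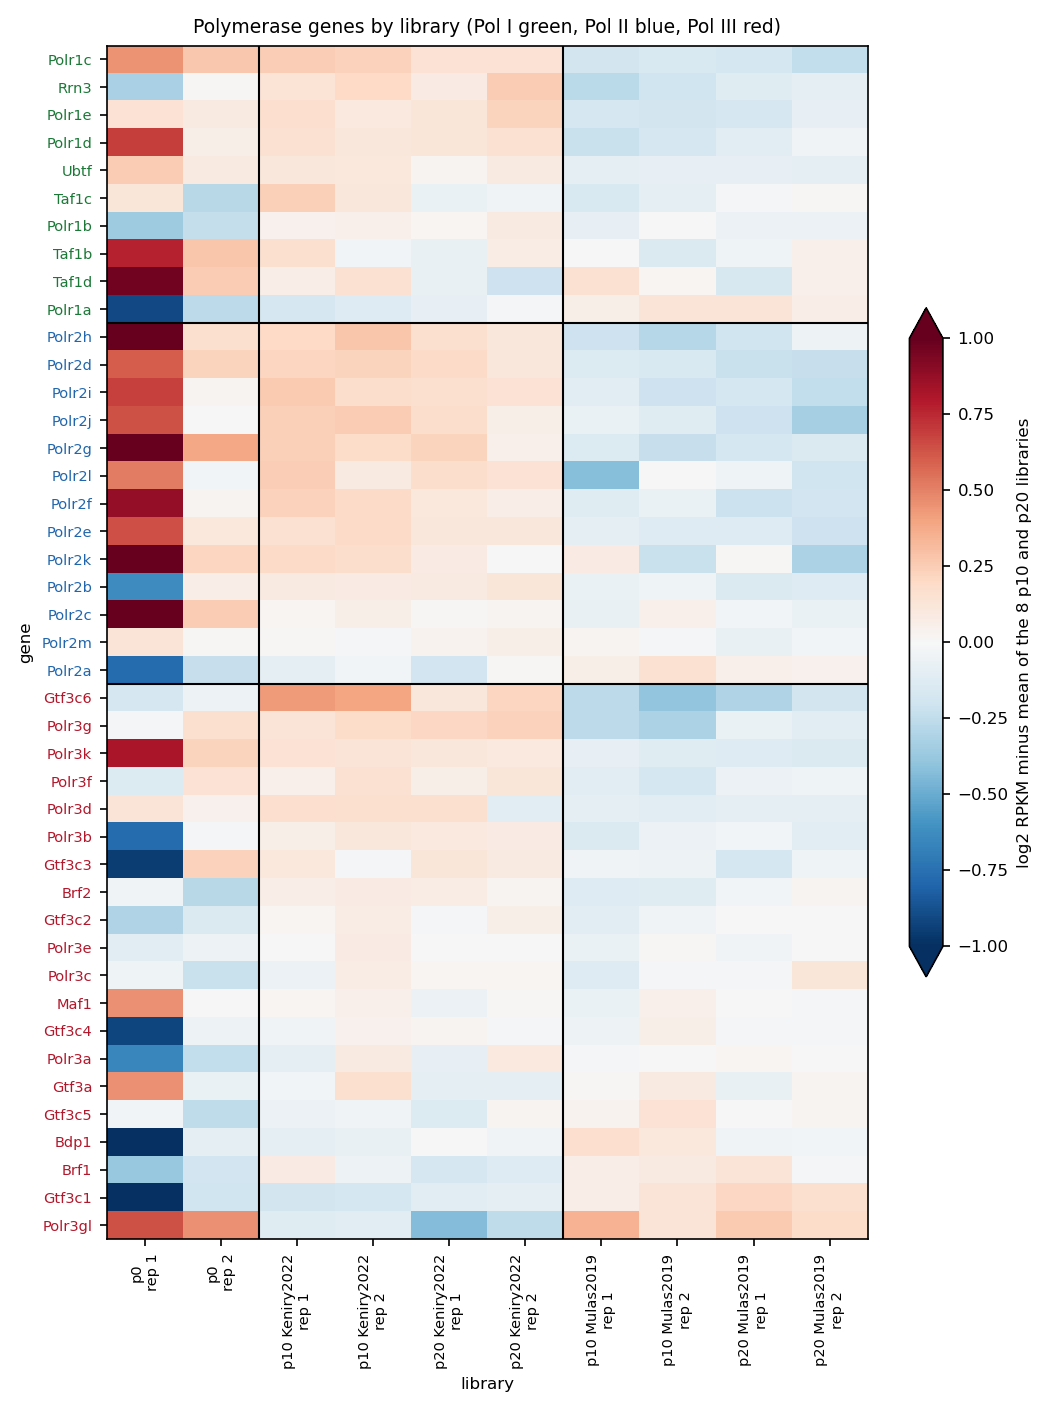
Heat map of 43 of the genes (rows, ordered within each polymerase by the difference between the methods) in the 10 libraries (columns). Colour is the log2 RPKM of a library minus the mean of the 8 p10 and p20 libraries, cut at 1 in either direction. Most Pol II rows are red under Keniry2022 and blue under Mulas2019, most Pol III rows are pale, and p0 replicate 1 departs furthest from the rest.

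The question of the main comparison was whether the culture method changed the expression of this machinery, with p10 and p20 libraries pooled within each method (4 against 4). The 4 libraries of a method were 2 lines, each sampled at p10 and p20, and the fit had no term for the line. Each SE and adjusted p treats them as 4 independent replicates, which they are not. Relative to Mulas2019, 23 of the 44 genes were higher under Keniry2022 and 4 were lower, by limma at an adjusted p under 0.05. This has to be read against all features tested, of which 51.5% were called, 25.9% higher and 25.5% lower, with a median log2 difference of -0.003. By polymerase, 6 genes rose and 1 fell of 10 for Pol I, 9 rose and 1 fell of 13 for Pol II, and 8 rose and 2 fell of 21 for Pol III. The median log2 difference was 0.15 for Pol I, 0.30 for Pol II and 0.04 for Pol III. The methods did not overlap for 26 members, with Keniry2022 above for 22 and below for 4. Of all features, 46.5% did not overlap, 23.1% with Keniry2022 above and 23.4% with it below. With the p0 libraries in the same model, 3 Pol I, 1 Pol II and 3 Pol III genes were called, 15.9% of the members against 19.2% of all features. Over every alternative setting run, 7 genes kept both direction and call: Polr1c, Polr1e, Rrn3, Polr2d, Gtf3c6, Polr3g and Polr3gl, the last of which does not enter the stricter filter on low values.

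**Figure D2:**
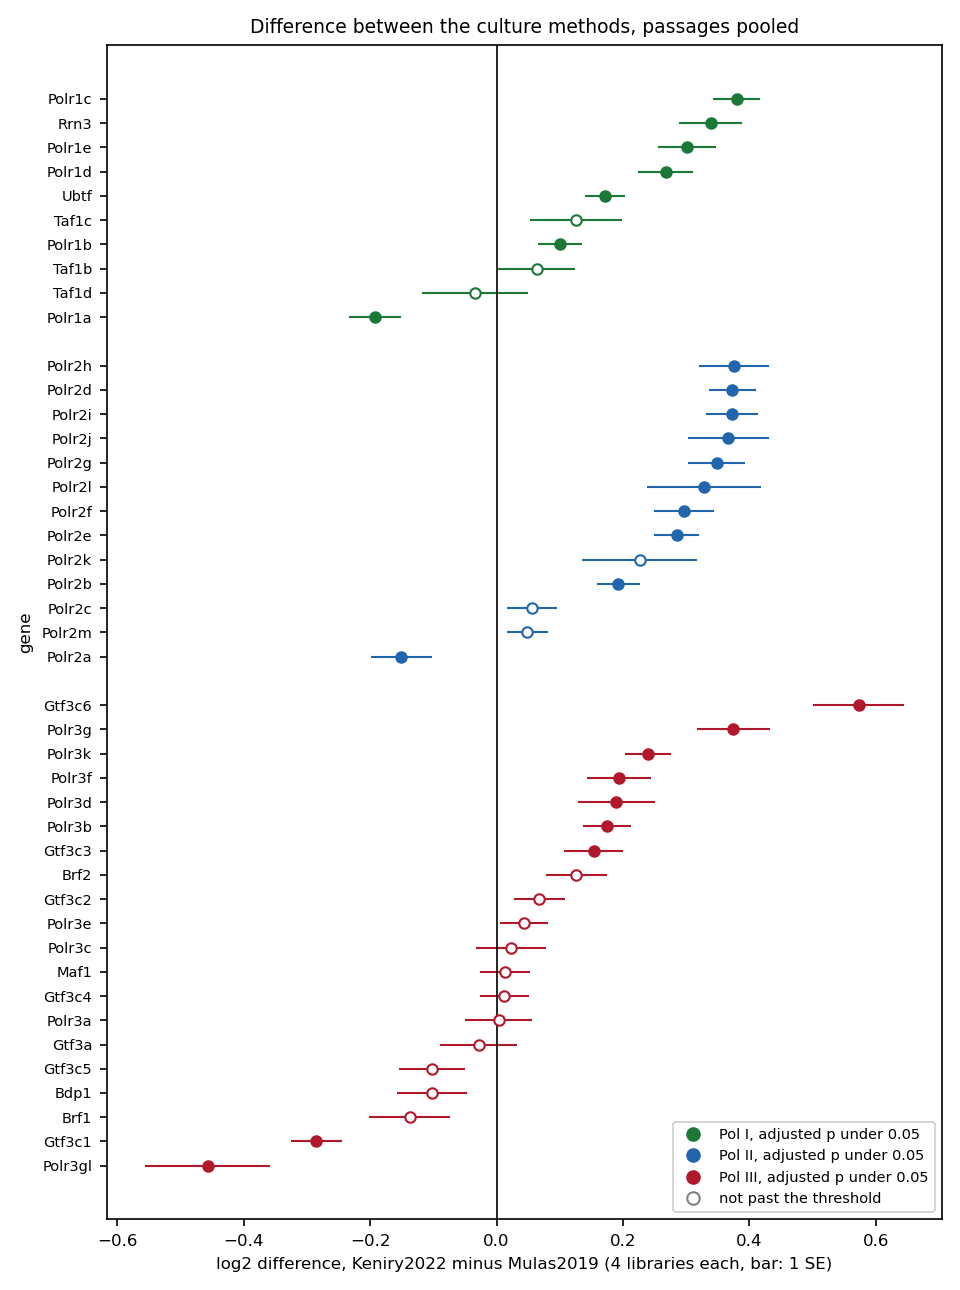
Log2 difference between Keniry2022 and Mulas2019 with passages pooled, for 43 genes of Pol I (green), Pol II (blue) and Pol III (red). Points are the limma estimates from 4 libraries (2 lines at p10 and p20) per method, bars are 1 SE, and filled points passed an adjusted p of 0.05. The Pol II genes that rose lie between 0.19 and 0.38, the largest subunits Polr1a and Polr2a lie below 0, and Pol III spans the widest range, from -0.46 for Polr3gl to 0.57 for Gtf3c6.

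In Pol I, the assembly subunits shared with Pol III and the factor Rrn3 were higher under Keniry2022, and the largest subunit was lower. Polr1c (17:46243920-46248054), a subunit of the assembly platform, stood at 6.39 and 6.38 log2 RPKM in p10 Keniry2022, 6.29 and 6.30 in p20 Keniry2022, 5.96 and 6.001 in p10 Mulas2019, and 5.97 and 5.91 in p20 Mulas2019. The methods did not overlap. The log2 difference was 0.38 ± 0.04 (SE), a 1.30-fold higher level (adjusted p = 6.38e-05 by limma). Its partner Polr1d was higher by 0.27 ± 0.04 (adjusted p = 0.000745 by limma). Rrn3 (16:13780699-13814840) stood at 5.98 and 6.04 in p10 Keniry2022, 5.93 and 6.10 in p20 Keniry2022, 5.57 and 5.64 in p10 Mulas2019, and 5.72 and 5.76 in p20 Mulas2019. Every Keniry2022 library was therefore above every Mulas2019 library, with a log2 difference of 0.34 ± 0.05 or 1.26-fold (adjusted p = 0.000465 by limma). Polr1e, a Pol I-specific subunit, was higher by 0.30 ± 0.05 (adjusted p = 0.000548 by limma), and Ubtf, which binds along ribosomal DNA, by 0.17 ± 0.03 (adjusted p = 0.00144 by limma). Under quantile normalisation Ubtf differed by 0.04 and was not called.

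Polr1a (6:71909053-71979356) encodes the catalytic subunit of Pol I. Its levels were 4.83 and 4.86 in p10 Keniry2022, 4.92 and 4.99 in p20 Keniry2022, 5.06 and 5.12 in p10 Mulas2019, and 5.12 and 5.06 in p20 Mulas2019. All Keniry2022 libraries were lower, although by a small amount: the log2 difference was -0.19 ± 0.04 or 0.875-fold (adjusted p = 0.00365 by limma). The exons of Polr1a overlap an opposite-strand gene, Gm26628, whose reads cannot be told apart from it since the strand setting of the counting is not given in the sources used here. Polr1b, the second largest subunit, was higher by only 0.10 ± 0.04 (adjusted p = 0.0351 by limma). This call was lost when any of 6 libraries was left out, namely both of p10 Keniry2022, the p20 Keniry2022 library labelled replicate 2, p10 Mulas2019 replicate 1 and both of p20 Mulas2019, with differences from 0.09 to 0.10, under quantile normalisation, at 0.03, and with the replicate block crossed for p20 Keniry2022, at 0.10. The 3 measured subunits of the selectivity factor did not pass the test: the log2 difference was 0.13 for Taf1c, 0.06 for Taf1b and -0.03 for Taf1d.

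In Pol II, most small subunits were higher under Keniry2022, and the largest subunit was lower. Polr2d, which with Polr2g forms the detachable stalk of the enzyme, stood at 6.80 and 6.82 in p10 Keniry2022, 6.79 and 6.71 in p20 Keniry2022, 6.46 and 6.44 in p10 Mulas2019, and 6.37 and 6.36 in p20 Mulas2019. The groups were separated by more than the range within either method. The log2 difference was 0.37 ± 0.04 or 1.30-fold for Polr2d (adjusted p = 7.79e-05 by limma) and 0.35 ± 0.04 or 1.27-fold for Polr2g (adjusted p = 0.000223 by limma). Polr2i (7:30231948-30233390), a small subunit with a role in fidelity and elongation, stood at 5.54 and 5.45 in p10 Keniry2022, 5.44 and 5.42 in p20 Keniry2022, 5.16 and 5.07 in p10 Mulas2019, and 5.10 and 5.03 in p20 Mulas2019. Its log2 difference was 0.37 ± 0.04 (adjusted p = 0.000118 by limma), with no overlap between the methods. Polr2j, an assembly subunit, was higher by 0.37 ± 0.06 (adjusted p = 0.0011 by limma). Its partner Polr2c showed a difference of only 0.06 ± 0.04 (adjusted p = 0.262 by limma), with overlapping groups.

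The 5 subunits that serve all 3 polymerases had log2 differences from 0.23 to 0.38, and 4 of them passed the test. Polr2h differed by 0.38 ± 0.06, Polr2l by 0.33 ± 0.09, Polr2f by 0.30 ± 0.05 and Polr2e by 0.28 ± 0.04. Polr2k, a short zinc-binding subunit with 85 to 218 reads per library, differed by 0.23 ± 0.09 and missed the threshold (adjusted p = 0.0586 by limma). It passed when p10 Mulas2019 replicate 1 or p20 Mulas2019 replicate 1 was left out, at 0.29 and 0.27. It also passed with the replicate number as a block.

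Polr2a (11:69733997-69758637), whose product carries the C-terminal repeat domain that is phosphorylated during transcription, stood at 5.73 and 5.80 in p10 Keniry2022, 5.63 and 5.84 in p20 Keniry2022, 5.88 and 5.98 in p10 Mulas2019, and 5.87 and 5.86 in p20 Mulas2019. The highest Keniry2022 library was just under the lowest of Mulas2019. The log2 difference was -0.15 ± 0.05 or 0.901-fold (adjusted p = 0.025 by limma). It lost the call, at -0.14, -0.12 and -0.11, when p10 Keniry2022 replicate 1, p10 Mulas2019 replicate 2 or the library labelled replicate 1 of p20 Keniry2022 was left out. Polr2b, the other large subunit, was higher by 0.19 ± 0.03 (adjusted p = 0.00117 by limma), so the pair that forms the catalytic core differed in sign. Under quantile normalisation Polr2b differed by 0.09 and was not called. Polr2m, the most abundant member, differed by 0.05 ± 0.03 and did not pass (adjusted p = 0.232 by limma), and its sign turned to -0.12 under quantile normalisation.

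In Pol III, subunits of the enzyme itself were mostly higher under Keniry2022, while its initiation factors were spread around 0. Of the 10 subunits that belong to Pol III alone, 6 rose and 1 fell, with a median log2 difference of 0.18. Of the 11 factors, 2 rose and 1 fell, with a median of 0.01. Over all features, 25.9% rose and 25.5% fell. The paralogues Polr3g and Polr3gl moved in opposite directions. Polr3g (13:81673843-81711013), part of the subcomplex that opens the promoter, stood at 4.94 and 4.998 in p10 Keniry2022, 5.03 and 5.05 in p20 Keniry2022, 4.56 and 4.50 in p10 Mulas2019, and 4.75 and 4.71 in p20 Mulas2019. It was 1.30-fold higher under Keniry2022, a log2 difference of 0.37 ± 0.06 (adjusted p = 0.000557 by limma). Polr3gl (3:96577872-96594181) stood at 0.79 and 0.80 in p10 Keniry2022, 0.47 and 0.65 in p20 Keniry2022, 1.25 and 1.04 in p10 Mulas2019, and 1.16 and 1.08 in p20 Mulas2019. It was 0.728-fold as high, a log2 difference of -0.46 ± 0.10 (adjusted p = 0.00366 by limma). Neither gene had overlapping groups. Opposite-strand exons of Gm16253 overlap those of Polr3gl.

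Set against each other per length in the same library, Polr3g exceeded Polr3gl everywhere. The ratio of their RPKM values was 17.8 and 18.4 in p10 Keniry2022, 23.5 and 21 in p20 Keniry2022, 9.90 and 11 in p10 Mulas2019, and 12 and 12.4 in p20 Mulas2019. At p0 it was 9.55 and 12.3, close to the Mulas2019 libraries. On the log2 scale Keniry2022 had a ratio of 4.33 ± 0.18 (SD, n = 4 libraries of 2 lines). Mulas2019 had one of 3.50 ± 0.14 (SD, n = 4 libraries of the same 2 lines), a difference of 0.83. No test is given, since the groups of either gene did not overlap. The higher ratio under Keniry2022 combines the opposite shifts of both paralogues.

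Gtf3c6 (10:40249203-40257665), the smallest subunit of TFIIIC, had the largest difference of all 44 genes. It stood at 5.73 and 5.70 in p10 Keniry2022, 5.41 and 5.52 in p20 Keniry2022, 5.04 and 4.91 in p10 Mulas2019, and 5.002 and 5.12 in p20 Mulas2019. The log2 difference was 0.57 ± 0.07 or 1.49-fold (adjusted p = 0.000197 by limma). Gtf3c1 (7:125640955-125707780), the largest TFIIIC subunit, which binds the internal promoter of transfer RNA genes, went the other way. It stood at 4.79 and 4.80 in p10 Keniry2022, 4.87 and 4.87 in p20 Keniry2022, 5.04 and 5.10 in p10 Mulas2019, and 5.18 and 5.14 in p20 Mulas2019. Its log2 difference was -0.28 ± 0.04 or 0.821-fold (adjusted p = 0.000381 by limma), again with no overlap. Of the other TFIIIC subunits, Gtf3c3 was higher by 0.15 ± 0.05 (adjusted p = 0.0193 by limma), a call that was lost without p10 Keniry2022 replicate 1 and without p20 Mulas2019 replicate 1, at 0.14 and 0.12, and under quantile normalisation, at 0.11. Gtf3c2 (0.07), Gtf3c4 (0.01) and Gtf3c5 (-0.10) did not pass, although Gtf3c2 and Gtf3c4 did with the trend on exon length removed.

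Other subunits that passed included Polr3k, a small subunit with a part in RNA cleavage, at 0.24 ± 0.04, Polr3f at 0.19 ± 0.05, Polr3d at 0.19 ± 0.06 and the second largest subunit Polr3b at 0.17 ± 0.04. Polr3d was the only called member whose groups overlapped. It stood at 4.32 to 4.33 in 3 Keniry2022 libraries and at 4.06 in the p20 Keniry2022 library labelled replicate 2, just below the 4 Mulas2019 libraries, which lay between 4.06 and 4.07. Without that library its difference was 0.26 and the call held. Its call was lost, at 0.17 to 0.19, when either p10 Keniry2022 library, p10 Mulas2019 replicate 2 or the library labelled replicate 1 of p20 Keniry2022 was left out, under quantile normalisation, at 0.15, and with the trend on exon length removed, at 0.14. The catalytic subunit Polr3a differed by 0.003 ± 0.053 on the log2 scale (adjusted p = 0.964 by limma), with a sign that turned under some settings. Polr3c (0.02) and Polr3e (0.04) did not pass.

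No subunit of TFIIIB passed the test with passages pooled. Brf1 differed by -0.14 ± 0.06 (adjusted p = 0.0964 by limma) and passed, at -0.19, without p10 Keniry2022 replicate 1. Brf2, which replaces Brf1 at promoters such as that of U6 RNA, differed by 0.13 ± 0.05 (adjusted p = 0.0504 by limma) and passed, at 0.16, without p20 Mulas2019 replicate 2, and at 0.13 to 0.14 in 5 other settings (quantile normalisation, median centring, the stricter filter, quality weights and passage as a term). In the model of the 8 p10 and p20 libraries, Brf2 (0.20) and Bdp1 (-0.22) passed at p10 (adjusted p = 0.0152 and 0.00961 by limma). Brf2 (0.18), Brf1 (-0.23) and Bdp1 (-0.15) passed in it at matched days (adjusted p = 0.0277, 0.0339 and 0.0424 by limma). With passages pooled, Bdp1 differed by -0.10 ± 0.06 (adjusted p = 0.15 by limma), and its sign turned to 0.06 once the trend with exon length was removed. TFIIIA (Gtf3a) differed by -0.03 ± 0.06 and the repressor Maf1 by 0.01 ± 0.04 (adjusted p = 0.721 and 0.799 by limma), and both changed sign under other settings.

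**Figure D3:**
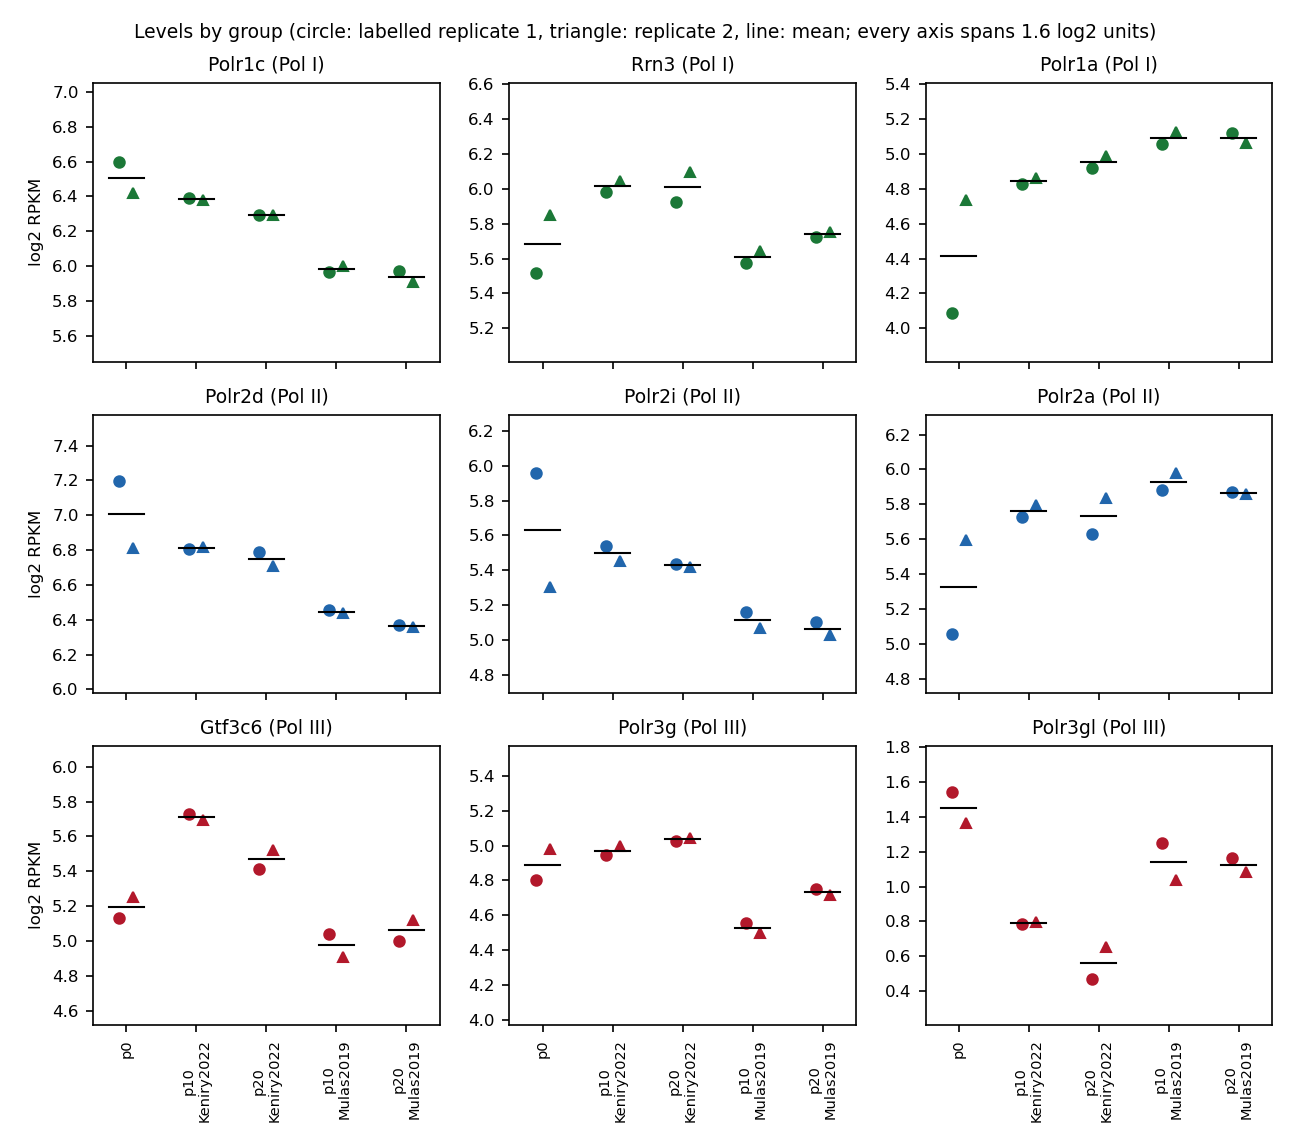
Log2 RPKM of 9 genes in each group, 3 per polymerase, with the library labelled replicate 1 as a circle, the library labelled replicate 2 as a triangle and the group mean as a line. Each vertical axis covers the same span, so distances can be compared between panels. The 9 genes are all among the members without overlap between the methods, so the lack of overlap in each panel follows from the choice. Of the 44 members, 22 had every Keniry2022 library above and 4 below, and 46.5% of all features did not overlap.

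Taken over all members, the differences fell with the length of the genes, and within the polymerases this was clearest for Pol II. Over the 44 genes, Pearson's r between the log2 difference and the log2 exon length was -0.45 (Spearman's rho -0.47), against -0.21 (rho -0.28) over all features. It is a description across genes, which share the same 8 libraries. Of the 22 shorter genes (543 to 2670 bases), 13 rose and 1 fell with a median of 0.26, and of all features in that range 36.4% rose and 16.2% fell. Of the 22 longer genes (2755 to 11005 bases), 10 rose and 3 fell with a median of 0.08, against 19.8% and 31.1% of all features in that range. Within Pol II the relation had r = -0.66 (rho -0.52), from Polr2f at 543 bases to Polr2a at 7067 bases. It was r = -0.14 (rho -0.02) in Pol I and r = -0.26 (rho -0.21) in Pol III. The short genes Polr3gl (1597 bases) and Gtf3c6 (1020 bases) lay far from each other at 1 end of the scale.

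The same axis separated the p0 libraries from each other, which came before the methods were split. Between p0 replicate 1 and p0 replicate 2 the log2 difference had r = -0.74 with log2 length over the 44 genes and -0.45 over all features. Polr2h was higher in replicate 1, at 5.69 against 4.58, and Bdp1 was lower, at 1.65 against 3.11. With a trend on exon length removed from every library, 7 Pol I, 9 Pol II and 11 Pol III genes were called between the methods, in place of 7, 10 and 10, with 46.9% of all features called. Polr2a and Polr3d then fell short, at -0.05 and 0.14 (adjusted p = 0.379 and 0.0694 by limma), and Gtf3c2 and Gtf3c4 passed, at 0.16 and 0.11 (adjusted p = 0.00742 and 0.0383 by limma). In that fit Polr1a stayed lower at -0.12 (adjusted p = 0.0334 by limma) and Gtf3c1 at -0.19 (adjusted p = 0.00266 by limma). With the replicate block added as well, Polr2l (0.24) and Gtf3c3 (0.13) fell short too. Polr1c (0.34), Polr2d (0.24), Gtf3c6 (0.44), Polr3g (0.39) and Polr3gl (-0.55) were still called. What length stands for in these libraries was not tested.

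**Figure D4:**
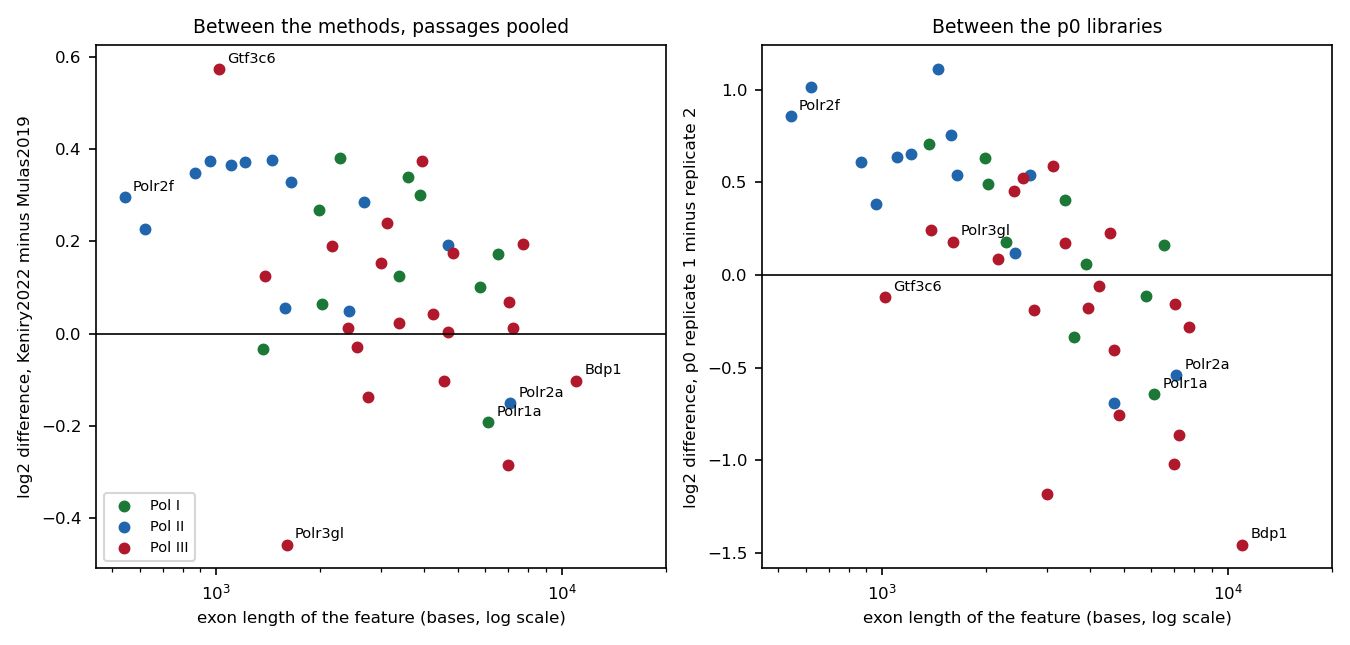
Log2 difference of 43 of the genes (vertical axis) against the exon length of its feature in bases (log scale), between the methods with passages pooled (left) and between the p0 libraries (right). Points are coloured by polymerase. Both panels slope downwards (over all 44 genes r = -0.45 and r = -0.74), the vertical axis of the right panel covers a wider range, and Polr3gl lies far below genes of similar length in the left panel.

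Taken passage by passage, in a model of all 10 libraries and 5 groups, few calls remained, and their number changed when the p0 pair was left out. At p10, 3 members were higher under Keniry2022 (8.53% of all features were called, 3.76% higher and 4.77% lower): Gtf3c6 by 0.74 ± 0.09, Polr3g by 0.44 ± 0.08 and Polr1c by 0.40 ± 0.08 (adjusted p = 0.00664, 0.0227 and 0.0278 by limma). At p20, 0 members were called (2.15% of all features), with 6 at an unadjusted p under 0.05, 0 by voom on recovered reads, and the smallest adjusted p for Gtf3c6, 0.0631 by limma, at 0.41 ± 0.09. Between p20 Keniry2022 and p10 Mulas2019, the groups matched in days, Polr3g was higher by 0.51 ± 0.08 and Gtf3c6 by 0.49 ± 0.09, and Polr3gl was lower, with a difference of -0.58 ± 0.14 (adjusted p = 0.0195, 0.0248 and 0.0495 by limma, 6.43% of all features called, 2.84% higher and 3.59% lower). These 3 comparisons share libraries.

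With the p0 libraries left out of the model, 27 members were called at p10 (23 higher and 4 lower, of all features 48.3% called, 24.8% higher and 23.5% lower), 21 at p20 (19 higher and 2 lower, of all features 36.7%, 18.6% and 18.2%) and 25 between the groups matched in days (19 higher and 6 lower, of all features 43.4%, 22.7% and 20.7%). Leaving out either p0 library alone is no separate check, since the p0 library that remains adds nothing to the estimate of the spread. By polymerase the p10 calls were 6 higher and 1 lower for Pol I, 9 higher and 0 lower for Pol II, and 8 higher and 3 lower for Pol III. The p20 calls were 5 and 0 for Pol I, 8 and 0 for Pol II, and 6 and 2 for Pol III. Polr2a was lower in the matched-days comparison only, at -0.20, and Polr1a was lower at p10 (-0.24) and at matched days (-0.14). Whether these calls differ between comparisons was tested only by the interaction given next.

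By limma in the model of all 10 libraries, no member passed the test between p10 and p20 within either method. None passed for a change of the method difference with passage either. There 0% of all features were called, and no member passed by voom on recovered reads. In simulated data with the same spread in every library, this model recovered 23% of log2 changes of 0.5 between the p10 groups. Missed calls are therefore likely, although the contrasts between passages and the interaction were not simulated. At an unadjusted p under 0.05 there was 1 member for each of these 3 contrasts: Gtf3c6 within Keniry2022, lower at p20 with a difference of -0.24 ± 0.09, Polr3g within Mulas2019, higher at p20 by 0.20 ± 0.08, and Gtf3c6 for the interaction, at -0.33 ± 0.13. Without the p0 libraries, 0 members were called as well, with 6, 6 and 4 members at an unadjusted p under 0.05 and 0.0343%, 2.47% and 0% of all features called. The smallest adjusted p was then 0.0526 by limma, for Polr3g within Mulas2019. With library quality weights and all 10 libraries, Polr3g passed within Mulas2019, at 0.20 (adjusted p = 0.0451 by limma, 4.43% of all features called).

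Against p0, members passed the test under Mulas2019 and 0 did under Keniry2022, by limma with both p0 libraries. Library quality weights ended all calls under Mulas2019, with 0% of all features called, and without a filter on low values 11 and 5 members were called at p10 and p20 (17.8% and 15% of all features). From p0 to p10 Mulas2019, 12 members fell and 5 rose (33% of all features called, 15.7% higher and 17.3% lower). Polr1c fell by 0.52 ± 0.08, Polr2g fell by 0.88 ± 0.18 and Polr2d fell by 0.56 ± 0.12 on the log2 scale (adjusted p = 0.0102, 0.0159 and 0.0183 by limma). From p0 to p20 Mulas2019, 11 fell and 5 rose (29.3% called, 14.7% higher and 14.6% lower), led by Polr1c, which fell by 0.57 ± 0.08, Polr2d, which fell by 0.64 ± 0.12, and Polr2g, which fell by 0.85 ± 0.18 (adjusted p = 0.0108, 0.0166 and 0.0188 by limma). The genes that rose at p10 were Polr1a, Polr1b, Polr2a, Polr3a and Brf1, so that the catalytic subunits of all 3 polymerases were higher than at p0. In the p0 libraries, replicate 1 before replicate 2, Polr1a stood at 4.09 and 4.73, Polr2a at 5.05 and 5.595, and Polr3a at 3.04 and 3.44, each below all 8 later libraries. These 3 genes are long (4683 to 7067 bases), and the 22 longer members had a median of -0.23 for p0 replicate 1 minus replicate 2. With the length trend removed, 4 members were higher and 11 lower at p10 Mulas2019 (31.4% of all features called, 15.2% higher and 16.1% lower). At p20 Mulas2019, 0 Pol II members were then higher (13.6% of all features). The part of length in these rises was not tested. From p0 to p10 and p20 Keniry2022, 0 members passed by limma (0.199% of all features at each passage), with 15 and 16 members at an unadjusted p under 0.05 and 0 by voom on recovered reads. The smallest adjusted p values were 0.0917 for Gtf3c6 at p10 (0.52 ± 0.09) and 0.0649 for Polr3gl at p20 (-0.89 ± 0.14). All 4 comparisons use the same p0 libraries, and the difference between the methods' changes from p0 is the comparison between methods given above.

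These counts changed when either p0 library was left out, and those under Mulas2019 also changed when any other single library was left out. Replicate 1 of p0 lay outside the range of the 8 other libraries for 35 of the 44 members, above it for 21 and below it for 14, and replicate 2 did so for 21. Over members, the SD of the log2 difference between the p0 replicates was 0.602, against 0.080 to 0.114 in the other groups. Without p0 replicate 1, 4 members were called at p10 Keniry2022 and 3 at p20 Keniry2022 (5.23% and 4.61% of all features), and 25 at p10 Mulas2019 (7 higher, 18 lower, of all features 40.5%, 19.8% and 20.6%) and 24 at p20 Mulas2019 (8 higher, 16 lower, of all features 37.5%, 18.8% and 18.7%). Without p0 replicate 2, 36, 34, 36 and 35 members were called in the same order (64.3%, 66.5%, 71.8% and 71.1%). In those fits the lone p0 library is assumed to vary like the other groups.

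Genes that work with the polymerases, taken from lists by function, are set here against the pooled comparison, in which 51.5% of all features were called, 25.9% higher and 25.5% lower. Of the Pol I partners, 9 were measured, of which 5 rose and 2 fell, with a median log2 difference of 0.11. Among them the Pol I subunits listed under older names were higher: Znrd1 by 0.44, Cd3eap by 0.37 and Twistnb by 0.19 (adjusted p = 0.000156, 0.00015 and 0.00537 by limma). Of 39 measured general factors of Pol II, 21 rose and 3 fell, with a median of 0.15. The factors that rose included Gtf2f1 (0.37), a subunit of TFIIF, Gtf2h5 (0.37), the smallest subunit of TFIIH, and Taf7 (0.32), a subunit of TFIID. Those that fell were Taf1, the largest subunit of TFIID (-0.19), Taf4a (-0.25) and Taf8 (-0.14).

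Of 10 Pol III partners, 4 rose and 2 fell, with a median of 0.01, a share near that of all features. Crcp, a Pol III subunit outside the naming rule, was higher by 0.17, Ssb, which binds the ends of new Pol III transcripts, by 0.26, Larp7 by 0.29 and Snapc5, of the complex that binds small nuclear RNA promoters, by 0.64. Snapc4, the largest subunit of that complex, was lower (-0.29), as was Pou2f1 (-0.16). Of 3 measured genes of mitochondrial transcription, Tfb2m (0.59) and Tfam (0.13) were higher, and the polymerase itself, Polrmt, at 0.03, did not pass.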

How the data were processed

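RNA-seq was carried out on 10 libraries in 5 groups of 2. Per the study, TruSeq libraries were sequenced single-end, trimmed, aligned to mm10 with HISAT2 and quantified in SeqMonk, whereas TopHat2 2.0.12 stands in the submitters' processing notes, so the aligner is not settled here. The authors deposited 1 table of log2 values. It is named as log CPM, but the floor of a feature without reads depends on its length, so the values are log2 RPKM, with 0.9 in place of 0 reads. Totals and exon lengths were worked out from the values. Whole reads (tolerance 0.1) then came out for 100% of values, which is no check where the length was itself found by a search for whole reads. Reads are not independent molecules.

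Groups follow the labels, and the reading of New and Old as Keniry2022 and Mulas2019 follows the study's methods. Differences were tested with limma 3.58.1 in R 4.3.3 (moderated test with trend) on the deposited log2 values, over features with log2 above 0 in at least 50% of libraries (11654 in the pooled fit, 11561 in the model of 10 libraries), with Benjamini-Hochberg adjustment over all of them and a threshold of 0.05. The study used voom on counts. The replicate number was not a term, as in the study. Because each line was split, same-numbered libraries share a line: the correlation of their deviations was 0.171 to 0.630 among the other groups and -0.118 to -0.698 for p20 Keniry2022, so these numbers appear crossed there. Replicates of a group are separate lines. Apart from whole multiples of it, which were not counted, each gene had 1 possible length. The steps were tested on simulated data.

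Members and lists were chosen with earlier results of these data known. Genes named by rule were the 2 large subunits of each polymerase, the listed factors, Polr3g and Polr3gl, the shared subunits, the 3 with the smallest adjusted p and the lowest and highest per polymerase, members called against the majority, and up to 3 per other comparison. The other members are named by role, except 1 that is counted but not reported here, and the partner genes named were chosen after their values were seen. Exons of 14 members overlap another gene in GENCODE vM21, in 13 cases on the opposite strand. Alternatives were other scalings, filters, a pseudocount of 1 RPKM, voom on recovered reads, quality weights, a replicate block, an exon length correction, other models and leaving out each library.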

Additional observations from a re-analysis of the deposited data

Results flagged for a closer look

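Among 88 groups of 4 libraries (44 genes in each method, with passages pooled), 4 held a library far from the other 3. For independent values from 1 normal distribution, the rule used would flag about 1 in 20 groups. These groups mix passages and lines and share libraries, so the number expected by chance here was not tested. Polr3e was at 4.23 log2 RPKM in p10 Keniry2022 replicate 2, against 4.15 to 4.16 in the other Keniry2022 libraries. Polr3d was at 4.06 in the p20 Keniry2022 library labelled replicate 2, against 4.32 to 4.33. Gtf3c3 was at 4.13 in p20 Mulas2019 replicate 1, against 4.26 to 4.28. Polr2a was at 5.98 in p10 Mulas2019 replicate 2, against 5.86 to 5.88. Without the library in question, Gtf3c3 and Polr2a lost their calls between the methods, at 0.12 and -0.12, and Polr3d kept its call, at 0.257.

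Taf1c, of the Pol I selectivity factor, was the 1 member whose libraries lay on opposite sides at the passages: both Keniry2022 libraries were above both Mulas2019 libraries at p10 (2.85 and 2.73 against 2.47 and 2.52) and below them at p20 (2.55 and 2.58 against 2.60 and 2.63). The difference between methods at p20 minus that at p10 was -0.34 on the log2 scale, and in the test of the interaction across all features it did not pass (adjusted p = 1 by limma).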

How the results depend on the processing

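Of the 44 members, 11 kept direction and side of the threshold under every alternative, 7 of them called. In the model of all 10 libraries, 3 Pol I, 1 Pol II and 3 Pol III members were called between the methods (19.2% of all features). Library quality weights gave 26 at p10, 19 at p20, 23 at matched days (50.9%, 35.3% and 40% of all features), 0 for Mulas2019 against p0 at p10 and 0 at p20, and 1, Polr3g, between passages within Mulas2019. Removing the length trend gave 6 at p10, 4 at p20, 6 at matched days and 1 for p20 Keniry2022 against p0 (16.1%, 6.76%, 13.2% and 0.787% of all features), the last being Brf2. Quantile normalisation gave 1 at matched days (6.66%). Without a filter, 11 and 5 members were called for Mulas2019 against p0 at p10 and p20 (17.8% and 15%). In the model of the 8 p10 and p20 libraries, chosen after seeing the data, the counts at p10, p20 and matched days were 27, 21 and 25 (48.3%, 36.7% and 43.4% of all features). The cause of these shifts was not tested.

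Leaving out 1 library gave 6 to 7 Pol I, 9 to 11 Pol II and 9 to 11 Pol III members between the methods, 0 to 27 at p10, 0 to 21 at p20, 0 to 25 at matched days, 0 to 36 and 0 to 34 for Keniry2022 against p0 at p10 and p20, 0 to 36 and 0 to 35 for Mulas2019 against p0, and 0 to 0 for the changes with passage. Of all features, 43.6% to 49.3% were called between the methods with passages pooled when 1 library was left out. At p10, p20, matched days and against p0, the share of all features called rose and fell with the member counts. These ranges are therefore not particular to the members. Each of the latter fits leaves 1 library in a group. Signs turned for members near 0. Under quantile normalisation Polr3a was at -0.0166, Maf1 at -0.055, Gtf3c4 at -0.0216, Polr3c at -0.00606 and Polr2m at -0.123. With the length trend removed Bdp1 was at 0.063, Maf1 at -0.0251 and Polr2c at -0.0374, also with the replicate block. With quality weights Gtf3a was at 0.00897 and Taf1d at 0.0258. With 1 library left out Polr3a ranged from -0.0286 to 0.0356, Maf1 from -0.00675 to 0.0347, Gtf3c4 from -0.00133 to 0.0348, Polr3c from -0.0154 to 0.0677, Gtf3a from -0.085 to 0.000148 and Taf1d from -0.0926 to 0.0294.

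With the replicate block, 7 Pol I, 11 Pol II and 10 Pol III members were called (49.3% of all features), and Polr2k was the one gained. With the numbers of p20 Keniry2022 crossed, chosen after seeing the data, they were 6, 11 and 10 (49.6% of all features), and Polr1b lost its call. Over all features the share of higher calls was 50.4%, against 59.3% with a filter above 2, 44.6% without a filter and 44.9% in the model of all 10 libraries. Depth limits Polr3gl and Polr2k most.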
